A study of Homo sapiens with 24 samples.

Results

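The genes described here are 9 angiogenic factors and their partners, VEGFA, VEGFB, VEGFC, PGF, FGF2, ANGPTL4, NRP1, NRP2 and THBS1, picked by symbol from count tables that hold 60448 gene symbols, 19201 of them protein-coding. All 9 symbols were present in each of the 4 tables and all 9 passed the filter on low counts in every comparison. The RNA came from 2 immortalized human prostate epithelial lines, RWPE-1 (immortalized with human papillomavirus 18 and grown in keratinocyte serum-free medium with epidermal growth factor and pituitary extract) and BPH-1 (immortalized with SV40 large T antigen and grown in medium with serum). Each line was taken at 3 stages: transduced with the empty FU-ILYW lentivirus, which carries firefly luciferase (vector control), transduced with the same virus expressing wild-type C-Raf from a ubiquitin promoter (C-Raf parental), and recovered into culture from metastases that formed after C-Raf cells were injected into the heart of immunodeficient NOD-scid gamma mice (metastasis-derived). In stage order RWPE-1 gave 1, 4 and 7 libraries and BPH-1 gave 3, 3 and 6, for 24 in all. By label the RWPE-1 metastases were of lymph node (LN1A, LN1B), spine (Spine, Spine2) and bone (Bone4, Bone5, Bone6), those of BPH-1 of bone or thymus. In RWPE-1 the lymph node libraries share the count table of the vector control and the bone libraries are in the other, so site and table are mixed. In BPH-1, titles of cells not passed through mice name an added Gaussia luciferase reporter, sGluc, that the metastasis-derived titles do not name. One BPH-1 pair carries conflicting site names in its title and its treatment label, so these are called by title only, bone R075 and thymus R075.

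Vascular endothelial growth factors are secreted dimers that bind receptor tyrosine kinases on endothelial cells. VEGFA is the main driver of vessel sprouting, PGF and VEGFB bind the receptor FLT1, and VEGFC acts mostly on lymphatic endothelium through FLT4. Neuropilins are co-receptors that bind both these ligands and class 3 semaphorins, thrombospondin 1 (THBS1) is a matrix protein that restrains vessel growth, ANGPTL4 is a secreted inhibitor of lipoprotein lipase that also acts on vessels, and FGF2 is a heparin-binding mitogen of endothelial cells and fibroblasts. Tumour epithelium commonly makes several of these ligands, whereas their receptor kinases are typical of endothelium.

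The libraries differed in depth in ways that touch the BPH-1 metastasis-derived group. In 21 libraries the protein-coding counts ranged from 20564036 to 41985418. Bone R071, bone R074 and bone R075 of BPH-1 held only 111161 to 464680, the noncoding RNA RN7SL1 taking 93.3% to 97.5% of their counts, and these 3 libraries were kept out of the fits. RN7SL1 still took 4.6% to 30.3% of counts in the 3 deeper BPH-1 metastasis-derived libraries (bone R069, bone R072 and thymus R075). The labels do not say whether libraries of a group came from separate cultures, so p-values measure only the spread between these libraries.

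THBS1 was the most abundant of the 9 transcripts per kilobase in all 6 groups. In BPH-1 C-Raf parental cells it reached 666 ± 32.8 CPM per kilobase (counts per 1000000 protein-coding counts after TMM scaling, per kilobase of transcript; SD, n = 3), followed by VEGFA at 76.2 ± 0.875, VEGFC at 33.7 ± 0.932 and VEGFB at 22.8 ± 0.705. NRP2, PGF, NRP1, FGF2 and ANGPTL4 followed in that order, from 9.33 ± 0.537 down to 1.95 ± 0.102, and no 2 neighbours in the order came within their SDs. In RWPE-1 C-Raf parental cells THBS1 also led, at 166 ± 79.2 CPM per kilobase (n = 4), and NRP2 (1.15 ± 0.472), PGF (2.04 ± 1.04) and FGF2 (2.58 ± 1.65) were lowest, within each other's spread. VEGFA (24.8 ± 10.3), VEGFC (20.5 ± 10.5), NRP1 (15.3 ± 2.56) and VEGFB (13.6 ± 1.37) did not differ beyond their spread there. The kinase receptors themselves were scarce in all deeper libraries: FLT1 reached at most 0.414 CPM, KDR at most 0.458 CPM and FLT4 at most 1.51 CPM.

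**Figure D1:**
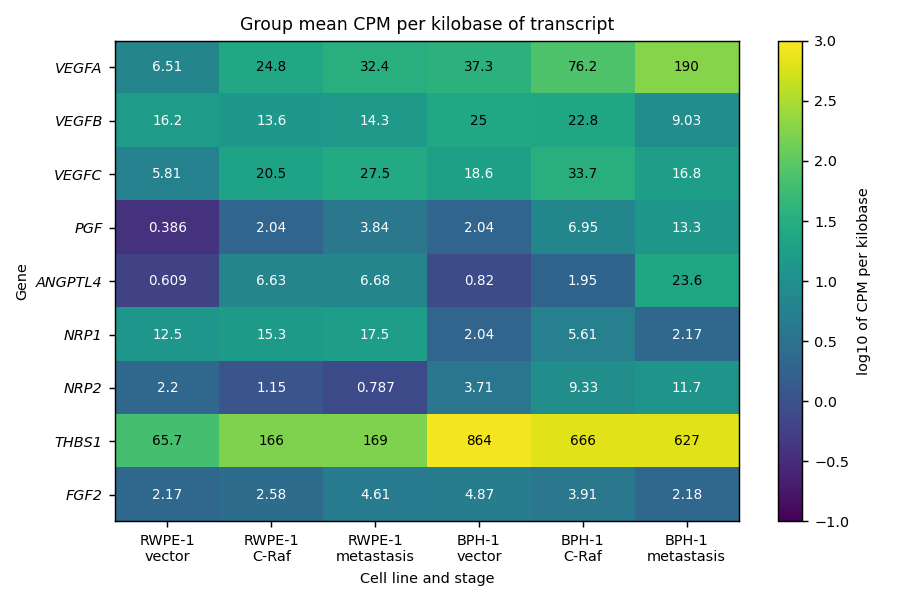
Heat map of the group mean level of each gene, in CPM per kilobase of its longest protein-coding transcript, with 1 column per cell line and stage and colour on a log10 scale. THBS1 is the brightest row, from 65.7 in the RWPE-1 vector control to 864 in BPH-1 vector control cells, and ANGPTL4 and PGF start below 1 in the RWPE-1 vector control.

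The first comparison asks what C-Raf did to these genes in cultured BPH-1 cells. All 9 passed the test, 6 of them higher with C-Raf (PGF, NRP1, NRP2, ANGPTL4, VEGFA and VEGFC) and 3 lower (THBS1, FGF2 and VEGFB). Vector and C-Raf libraries did not overlap for any of them, but replicates were close. Between pairs within a group the squared difference averaged 1.79 to 4.48 times the variance of counting noise. The share of all genes without overlap is not given here, so the lack of overlap is not particular to these 9. Over all genes tested 59.8% were called in this comparison, and the median log2 fold change was -0.002 against 1.01 for the 9 genes. In these bulk libraries fewer cells of a type and less RNA per cell cannot be told apart.

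Placental growth factor, PGF (chr14:74941834-74955784, minus strand, GRCh38), had the largest increase of the 9. Its level was 4.17, 3.54 and 4.08 CPM in the vector control libraries and 13.7, 13.25 and 13.2 CPM in the C-Raf parental libraries, without overlap. The log2 fold change was 1.74 (SE 0.08), a 3.35-fold difference, with an edgeR adjusted p of 7.9e-17. Its absolute fold change exceeded that of 97.7% of the genes tested.

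ANGPTL4 (chr19:8363289-8374373, plus strand) was the least abundant member in these cells. It stood at 1.40, 1.39 and 1.83 CPM with vector and at 3.61, 3.89 and 3.52 CPM with C-Raf, again without overlap. The log2 fold change was 1.23 (SE 0.14, edgeR adjusted p = 2.4e-08).

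PGF and ANGPTL4 were called higher at both steps in BPH-1, with C-Raf and again in the metastasis-derived libraries described further on, and their upstream sequences are shown for that reason. VEGFA was also higher at both steps but missed the threshold at the second. RefSeq (GRCh38.p14) gave such a sequence for 7 of the 9 genes. The 250 bases before an annotated start are written 5′ to 3′ along the gene, and capitals mark matches on either strand to ACGTG (the core of the hypoxia response element), TGANTCA (AP-1), CCGGAA (ETS) or GGGCGG (GC box). PGF is given at the more upstream of its 2 starts, chr14:74955765-74956014 (minus strand), and ANGPTL4 at chr19:8363905-8364154 (plus strand).
PGF: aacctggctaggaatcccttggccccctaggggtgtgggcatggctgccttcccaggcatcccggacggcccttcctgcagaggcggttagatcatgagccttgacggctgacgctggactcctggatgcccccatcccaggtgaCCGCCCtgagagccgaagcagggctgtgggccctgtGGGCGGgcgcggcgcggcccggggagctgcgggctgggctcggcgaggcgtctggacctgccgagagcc
ANGPTL4: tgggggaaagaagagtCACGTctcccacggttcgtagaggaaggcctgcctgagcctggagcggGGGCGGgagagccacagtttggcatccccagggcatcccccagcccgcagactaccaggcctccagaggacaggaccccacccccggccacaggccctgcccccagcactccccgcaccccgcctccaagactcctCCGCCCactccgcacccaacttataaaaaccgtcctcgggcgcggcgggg
The ANGPTL4 window held 1 match to ACGTG, 234 bases before the start, and 2 GC boxes. The PGF window held 2 GC boxes and no match to the other letters. Of 35116 promoter windows of this length, 18.5% held ACGTG, 42.6% a GC box, 14.5% CCGGAA and 6.57% TGANTCA, the background against which these matches stand. None of the windows of the 7 genes held CCGGAA or TGANTCA.

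VEGFA (chr6:43770184-43786487, plus strand) was the most abundant of the VEGF-family ligands. Vector control libraries held 129, 136 and 130 CPM, and C-Raf parental libraries held 272, 270.5 and 266 CPM. The groups did not overlap (log2 fold change 1.01, SE 0.03, 2.02-fold, edgeR adjusted p = 3.4e-22). VEGFC (chr4:176683538-176792727, minus strand) went from 38.3 ± 0.447 to 69.5 ± 1.92 CPM (n = 3 each, log2 fold change 0.84, SE 0.04, edgeR adjusted p = 7.7e-18).

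The other ligands moved little and downward. VEGFB (chr11:64234538-64238793, plus strand) was 34.8, 33.45 and 35.15 CPM with vector and 32.2, 31.85 and 30.4 CPM with C-Raf, a log2 fold change of -0.15 (SE 0.04, edgeR adjusted p = 0.0030). FGF2 (chr4:122826708-122898236, plus strand) went from 33.0 ± 1.44 to 26.5 ± 1.14 CPM (n = 3 each, log2 fold change -0.33, SE 0.05, edgeR adjusted p = 6.3e-07). Exons of FGF2 share 804 of 6775 bases with NUDT6, a gene on the opposite strand, and no source used here says whether the counting kept strand, so reads of the shared stretch may belong to either gene. NUDT6 stood at 1.26 to 4.58 CPM across the groups, below FGF2 in each group mean. Opposite-strand genes also share exon bases with THBS1 (448 of 9158 with FSIP1 and 411 with an antisense RNA) and, as antisense RNAs, with NRP1 (561 of 11522), VEGFA (188 of 14431), NRP2 (147 of 13896) and ANGPTL4 (1 of 2482).

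Both neuropilins rose with C-Raf. NRP1 (chr10:33177492-33336262, minus strand) read 11.2, 12.8 and 11.97 CPM in vector control libraries and 33.9, 30.6 and 34.4 CPM in C-Raf parental libraries (log2 fold change 1.45, SE 0.06, 2.72-fold, edgeR adjusted p = 1.5e-18). NRP2 (chr2:205681990-205798133, plus strand) read 23.6, 25.9 and 24.5 CPM against 65.9, 58.7 and 61.9 CPM (log2 fold change 1.32, SE 0.04, 2.49-fold, edgeR adjusted p = 3.0e-20). The 2 groups did not overlap for either co-receptor.

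THBS1 (chr15:39581079-39599466, plus strand), the inhibitor of the set, was lower with C-Raf. Its level was 6561, 7090 and 6507 CPM in vector control and 5291, 4885 and 5355 CPM in C-Raf parental libraries, a log2 fold change of -0.39 (SE 0.03, edgeR adjusted p = 5.0e-11). The 3 replicates of each group were very close to each other (squared differences of pairs averaged 1.79 to 4.48 times the variance of counting noise). With the wider spread of the metastasis-derived libraries shared in 1 fit of all BPH-1 groups, only 377 genes and 2 of the 9 members were called, PGF (adjusted p = 0.0044) and NRP1 (adjusted p = 0.0125), at nearly the same fold changes.

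Genes of the same pathway outside the set were mixed in this comparison, where 59.8% of all genes were called. Of 12 known ERK output genes, 11 rose and 1 fell, among them the ERK phosphatases DUSP6 (log2 fold change 1.70) and DUSP4 (1.67). Of 13 other secreted vessel factors tested, 1 rose (the chemokine CXCL8, 0.78) and 9 fell, including the vasodilator peptide ADM (-1.08) and EDN1 (-1.23). Of 12 hypoxia response genes, 2 rose, the glucose transporter SLC2A1 (0.54) and NDRG1 (0.40), and 8 fell, with EGLN3 (-0.90) lowest. Of 7 class 3 semaphorins, which bind neuropilins, 3 rose, led by SEMA3A (1.28), and 3 fell, led by SEMA3E (-3.85). Markers of other cell types moved as well. The 7 fibroblast markers summed to 24.99 to 27.2 CPM with vector and 11.3 to 11.5 CPM with C-Raf (3 of 3 tested fell, COL1A1 by 1.17 on the log2 scale). The 6 haematopoietic markers summed to 12.85 to 14.3 and 24.2 to 27.1 CPM, of which CD68 averaged 19.25 CPM over these libraries. Of the 2 haematopoietic markers tested, CD68 rose (1.02) and the other fell. The part of all these markers in the members' values was not tested.

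**Figure D2:**
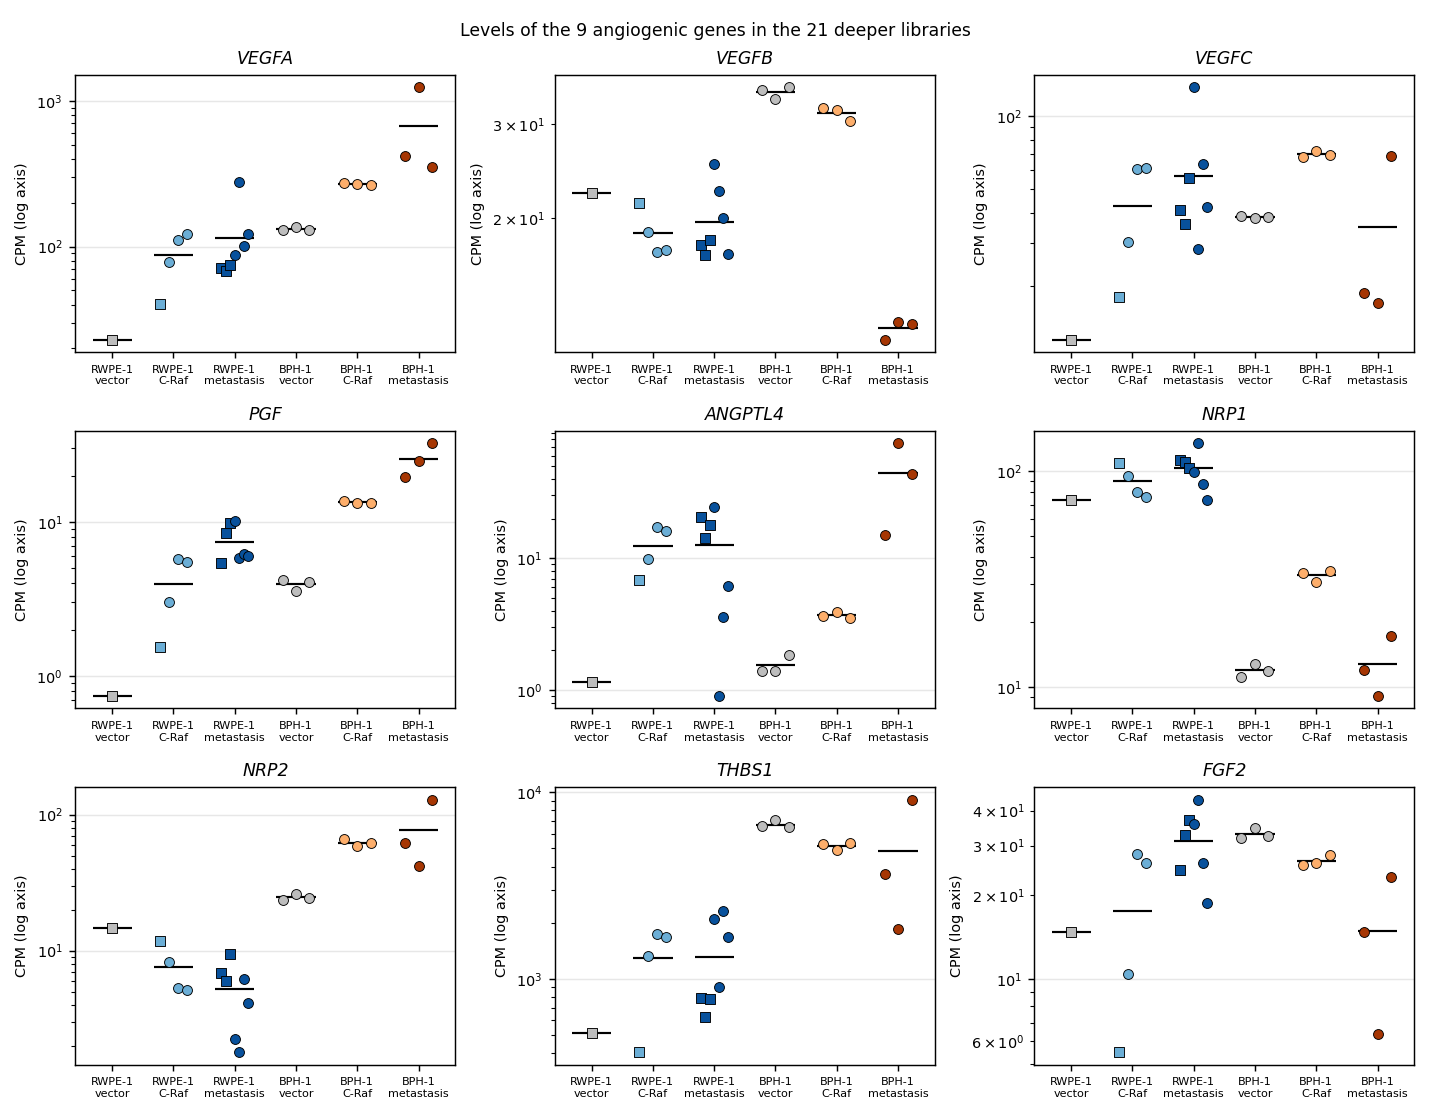
Level of each gene in CPM (log axis) in the 21 deeper libraries by cell line and stage, with 1 point per library, a bar at the group mean, and squares for the RWPE-1 table that holds the vector control. In BPH-1, points with vector and with C-Raf lie in tight separate bands for every gene, whereas RWPE-1 and metastasis-derived points spread widely, for example ANGPTL4 from 0.902 to 24.6 CPM in RWPE-1 metastasis-derived libraries.

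The next comparison asks how the 3 deeper BPH-1 metastasis-derived libraries differed from the C-Raf parental cells. ANGPTL4 and PGF rose and VEGFB and NRP1 fell, and the other 5 members did not pass the test. Across all genes 37.7% were called, with a median log2 fold change of 0.075, and 4 of the 9 members were called, with a median of -0.047. The metastasis-derived libraries stand in a table of their own, so stage and table cannot be told apart in BPH-1.

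ANGPTL4 changed most. Its level was 14.9 CPM in bone R069, 74.5 in bone R072 and 43.5 in thymus R075, all above the C-Raf parental range of 3.52 to 3.89 CPM. The log2 fold change was 3.64 (SE 0.59), a 12.5-fold difference, with an edgeR adjusted p of 0.0062. The call was made in all 12 alternatives run.

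PGF rose a second time, with the largest value in the library titled thymus R075. It stood at 19.7 CPM in bone R069, 24.8 in bone R072 and 32.4 in thymus R075 against 13.2 to 13.7 CPM in C-Raf parental cells. The log2 fold change was 0.98 (SE 0.22, edgeR adjusted p = 0.0158). Leaving out any 1 of the 3 C-Raf parental libraries ended this call, with adjusted p values of 0.0796 for the first, 0.0829 for the second and 0.0818 for the last. With the 3 shallow libraries included it was 0.84 (adjusted p = 0.369). Bone R072 had a TMM factor of 0.6159, against 1.13 to 1.147 in the C-Raf parental libraries. Without scaling its PGF was 15.27 CPM, inside the C-Raf parental range of 15.16 to 15.49 CPM. Bone R069 (21.48) and thymus R075 (32.97) stayed above that range. Unscaled VEGFA (764.8 CPM) and ANGPTL4 (45.86 CPM) in bone R072 also stayed above C-Raf parental cells (at most 309.4 and 4.447 CPM).

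VEGFB and NRP1 went down. VEGFB was 11.9, 12.8 and 12.7 CPM in bone R069, bone R072 and thymus R075, against 30.4 to 32.2 CPM in C-Raf parental cells (log2 fold change -1.29, SE 0.15, edgeR adjusted p = 0.0027). NRP1 was 12.02, 9.16 and 17.2 CPM in the same order against 30.6 to 34.4 CPM (log2 fold change -1.32, SE 0.25, edgeR adjusted p = 0.0097). The vector control range was 11.2 to 12.8 CPM, with bone R069 inside it, bone R072 below and thymus R075 above. The NRP1 call was lost without the first C-Raf parental library (adjusted p = 0.0505).

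VEGFA was higher in all 3 deeper metastasis-derived libraries but ranged over 3.53-fold between them. It read 419 CPM in bone R069, 1242 in bone R072 and 352 in thymus R075, each above the C-Raf parental range of 266 to 272 CPM. The log2 fold change was 1.38 (SE 0.51, edgeR adjusted p = 0.0766). Without bone R072 the difference was 0.55 with an adjusted p of 0.0093, and without thymus R075 it was 1.68 with an adjusted p of 0.03085. With all BPH-1 groups in 1 fit the edgeR adjusted p was 0.0268, and DESeq2 gave 0.0202. These 4 were the only ones of the 12 alternatives run in which VEGFA passed. Over all 12 its log2 fold change ran from 0.472 to 1.679, with an edgeR adjusted p of up to 0.7157.

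The remaining members were highest in the library titled thymus R075 among the 3. VEGFC was 18.6 and 16.9 CPM in bone R069 and bone R072 and 68.7 CPM in thymus R075, where it stayed inside the C-Raf parental range of 68.1 to 71.7 CPM (log2 fold change -0.96, SE 0.55, edgeR adjusted p = 0.206). Without thymus R075 the difference was -1.91 (adjusted p = 0.0014). FGF2 was 14.8, 6.40 and 23.2 CPM against 25.6 to 27.8 CPM (log2 fold change -0.79, SE 0.42, edgeR adjusted p = 0.182, and -1.25 with an adjusted p of 0.0409 without thymus R075). NRP2 was 62.1, 41.85 and 129 CPM against 58.7 to 65.9 CPM, and THBS1 was 3637, 1841 and 9151 CPM against 4885 to 5355 CPM, so both straddled the C-Raf parental range (edgeR adjusted p = 0.494 and 0.953).

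Other cell types' markers moved with the metastasis-derived stage. The 8 endothelial markers summed to 3.76 to 42.0 CPM in the 3 deeper libraries against 2.39 to 3.02 CPM in C-Raf parental cells. VWF made 2.02 to 38.5 CPM of this, and PECAM1 stood at 0 to 0.395 CPM. CDH5 stood at 0.213 to 0.294 CPM, below its 0.7465 to 0.8084 CPM in C-Raf parental cells. Of the 4 endothelial markers tested, 2 rose and 1 fell. The 7 fibroblast markers summed to 48.8 to 70.35 CPM against 11.3 to 11.5 CPM, of which COL1A1 made 46.5 to 67.75 CPM, with COL1A2 at most 0.390 and COL3A1 at most 0.490 CPM. Haematopoietic markers (6 genes) summed to 5.84 to 21.7 CPM against 24.2 to 27.1 CPM, and epithelial markers (6 genes) to 4688 to 6149 CPM against 5656 to 5803 CPM. Of these 6 epithelial genes 4 fell, among them KRT8 (log2 fold change -2.96), KRT18 (-2.84) and EPCAM (-1.59), and KRT5 rose (0.75). Any cells of the host would be of mouse, whereas reads were aligned to the human genome hg38. Whether any such cells or mouse reads were present, and their part in the members' values, was not tested.

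Related genes outside the set moved unevenly at this step, and the shares called in the hypoxia and secreted lists were close to the 37.7% of all genes. Of 12 hypoxia response genes 5 rose and none fell, among them NDRG1 (log2 fold change 3.30), EGLN3 (2.51) and ANKRD37 (2.39). Of 13 secreted vessel factors 4 rose, including FGF1 (3.29), ADM (2.90) and EFNA1 (2.08), and APLN fell (-1.11). Among other VEGF and angiopoietin ligands 3 were tested, 2 of which rose, the angiopoietins ANGPT2, from at most 0.0622 CPM in C-Raf parental cells to 3.69 to 9.70 CPM, and ANGPT4, which stayed at or below 1.03 CPM, and ANGPTL2 fell (-1.24). The thrombospondin THBS2 rose (2.96), and so did CD36, a thrombospondin receptor, from at most 0.0684 CPM to 1.28 to 27.95 CPM. Of the 12 ERK output genes 1 rose, 2 fell and 9 did not pass.

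The 3 shallow BPH-1 libraries gave only rough levels. Bone R071 held 14 counts of PGF, or 58.8 CPM with an exact 95% interval of 32.1 to 98.6 CPM, and 6 counts of ANGPTL4, or 25.2 CPM (9.24 to 54.8). VEGFA gave 15, 36 and 5 counts in bone R071, bone R074 and bone R075, or 63.0, 289 and 102 CPM. PGF had 0 counts in bone R074 and bone R075, with exact 95% upper bounds of 29.6 and 75.2 CPM, and ANGPTL4 had 3 counts and 0. The VEGFA intervals of bone R071 and bone R075 ended at 103.8 and 237.8 CPM, below every C-Raf parental library, while that of bone R074 ran from 202.6 to 400.4 CPM. THBS1 was 1137, 345.5 and 856 CPM, each with its upper bound (1281 at most) below the C-Raf parental range. VEGFB, VEGFC, NRP1 and NRP2 had at most 3 counts in each of the 3 libraries. Marker sums of the 3 libraries also stood apart, with 56.2 to 277 CPM for fibroblast, 0 to 80.3 for endothelial, 24.1 to 183.5 for haematopoietic and 1101 to 2643 for epithelial markers, and their part was not tested. These intervals and limits cover counting error only.

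In RWPE-1 the same question about C-Raf rested on 1 vector control library. No member passed the edgeR test, in a comparison where 55 genes, or 0.397%, were called (2505 genes had an unadjusted p under 0.05). DESeq2 called 802 genes and 1 member, PGF (adjusted p = 0.0078). Without the first C-Raf parental library edgeR called 1446 genes, PGF among them (adjusted p = 0.0167).

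PGF stood at 0.744 CPM in the vector control library and at 1.54, 3.03, 5.71 and 5.47 CPM in the 4 C-Raf parental libraries. The log2 fold change was 2.41 (SE 0.72, edgeR adjusted p = 0.152). ANGPTL4 was 1.14 CPM with vector and 6.79, 9.82, 17.15 and 16.1 CPM with C-Raf (log2 fold change 3.45, SE 1.57, edgeR adjusted p = 0.274). For both genes all 4 C-Raf libraries lay above the single vector control.

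VEGFA was 23.0 CPM with vector and 40.4, 78.1, 110.5 and 121 CPM with C-Raf (log2 fold change 1.94, SE 0.84, edgeR adjusted p = 0.255). VEGFC was 11.98 CPM against 18.0, 30.3, 60.3 and 61.0 CPM (log2 fold change 1.83, SE 0.89, edgeR adjusted p = 0.294). These ligands too lay above the vector control in 4 of 4 libraries. NRP1 did as well, while NRP2 and VEGFB lay below it in 4 of 4. The share of all genes on one side of this single library was not computed. Nothing is therefore read from these separations, those of PGF and ANGPTL4 included.

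THBS1 and FGF2 straddled the vector control. THBS1 was 511 CPM with vector and 405, 1325, 1743 and 1675 CPM with C-Raf, and FGF2 was 14.7 CPM against 5.50, 10.5, 27.9 and 26.0 CPM. NRP2 ran the other way, at 14.6 CPM with vector and 11.8, 8.23, 5.34 and 5.12 CPM with C-Raf (log2 fold change -0.94, SE 0.69, edgeR adjusted p = 0.476). NRP1 (73.5 CPM against 109, 94.65, 80.3 and 75.9 CPM) and VEGFB (22.3 CPM against 21.4, 18.9, 17.3 and 17.4 CPM) changed by 0.30 and -0.25 on the log2 scale (edgeR adjusted p = 0.565 and 0.532).

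Only the first of these C-Raf libraries shares a table with the vector control. Within that table the log2 differences were 0.81 for VEGFA (edgeR adjusted p = 0.0371), 2.57 for ANGPTL4 (0.0504), 1.05 for PGF (0.428) and 0.58 for VEGFC (0.452), and they turned negative for THBS1 (-0.33, 0.423) and FGF2 (-1.42, 0.145). With 1 library on each side, the spread in that fit came from the 3 metastasis-derived libraries of the table. PGF, ANGPTL4, THBS1, VEGFC, VEGFA and FGF2 all had their lowest value in that first of the 4 C-Raf parental libraries and their highest in one of the last pair, while VEGFB, NRP1 and NRP2 were highest in the first.

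Metastasis-derived RWPE-1 libraries were then compared with the C-Raf parental ones. No member passed the edgeR test, where 16 genes or 0.115% were called (1129 at an unadjusted p under 0.05, and 173 genes but no member by DESeq2). PGF ranged from 5.42 to 10.2 CPM with a median of 6.15 CPM over the 7 libraries, against 1.54 to 5.71 CPM in the 4 C-Raf parental libraries (log2 fold change 0.92, SE 0.33, edgeR adjusted p = 0.455). FGF2 ranged from 18.7 to 43.8 CPM with a median of 32.6 CPM (0.84, SE 0.39, edgeR adjusted p = 0.617). Both overlapped the C-Raf parental range.

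The other members also overlapped. ANGPTL4 had the widest range, from 0.902 CPM in Bone4 to 24.6 CPM in Spine2, with a median of 14.3 CPM (log2 fold change 0.02, SE 0.66, edgeR adjusted p = 0.996). Bone4 was at the same time the highest library for VEGFA, at 279 CPM against 68.1 to 121 CPM in the other 6, and for NRP1, at 135 CPM. NRP2 ranged from 1.80 CPM, again in Bone4, to 9.43 CPM, with a median of 6.03 CPM (-0.53, SE 0.41, edgeR adjusted p = 0.790). VEGFC reached 132 CPM in Spine2 against 28.3 to 63.6 CPM elsewhere.

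The same differences were taken within each table. In the table with the vector control, LN1A, LN1B and Spine against 1 C-Raf library gave log2 differences of 2.53 for FGF2 (edgeR adjusted p = 0.0370) and 0.83 for VEGFA (0.0264), and 2.36 for PGF (0.0649). That C-Raf library is the lowest of the 4 for all 3 genes, and the spread behind these p-values is that of the 3 metastasis-derived libraries only. In the other table, Spine2 and Bone4 to Bone6 against 3 C-Raf libraries gave 0.53 for FGF2 (0.734), 0.50 for VEGFA (0.753) and 0.57 for PGF (0.612). ANGPTL4 was 1.38 (0.0604) in the first table and -0.70 (0.846) in the second. The 8 endothelial markers summed to 0.658 to 5.11 CPM over the 12 RWPE-1 libraries and the 7 fibroblast markers to 7.35 to 56.1 CPM, the highest in Bone5, and the 6 epithelial markers ran from 7950 CPM in the vector control to 1625 CPM in Spine2. The 6 haematopoietic markers summed to 32.9 CPM with vector and 54.7, 70.1, 131 and 124 CPM in the 4 C-Raf parental libraries. PGF, ANGPTL4, THBS1 and FGF2 ranked these 4 libraries in the same order. In the metastasis-derived ones the sum was 72.4 to 147 CPM, highest in Spine2. A single gene, CD68, averaged 65.27 CPM over the C-Raf parental libraries of both lines. The part of all these markers in the members' values was not tested.

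Of the related lists, no gene passed in either RWPE-1 comparison: 0 of 12 hypoxia response genes, 0 of 12 ERK output genes, 0 of 12 other secreted vessel factors, 0 of 13 receptors and co-receptors, 0 of 9 vessel inhibitors and 0 of 5 class 3 semaphorins. Over all genes only 0.397% were called for C-Raf and 0.115% for the metastasis step, so these zeros are near that share.

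**Figure D3:**
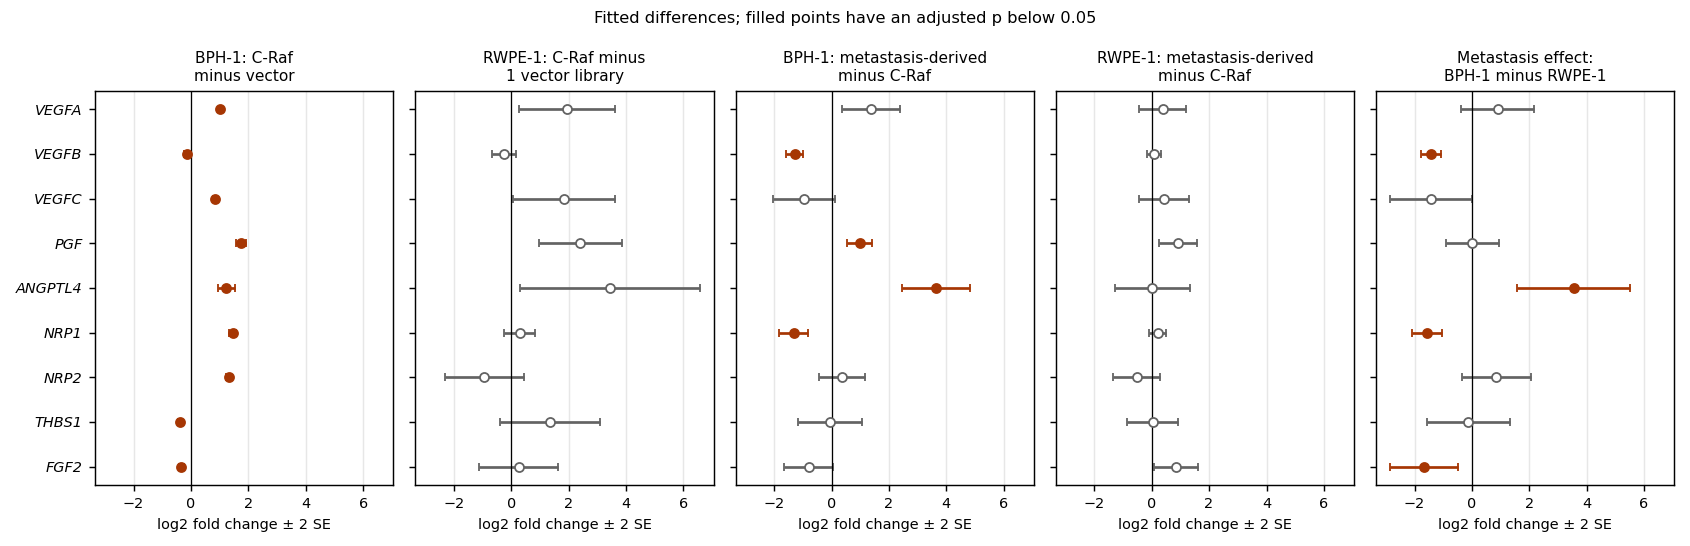
Fitted log2 fold change (point) with 2 SE either side (bar) of each gene in 5 comparisons, filled where the edgeR adjusted p was below 0.05. For each gene the bar is shortest for C-Raf in BPH-1, where all 9 points are filled, and longest for C-Raf in RWPE-1, where ANGPTL4 spans 0.32 to 6.58.

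With both lines in 1 fit and the cell line as a term, PGF was the only member called, at both steps. C-Raf parental exceeded vector control by 1.91 (SE 0.31, 3.75-fold, edgeR adjusted p = 0.0058), in a comparison that called 0.815% of genes, and in all 18 alternatives. DESeq2 also called VEGFA (adjusted p = 0.0205), ANGPTL4 (0.0045) and NRP1 (0.0234), and so did edgeR without the metastasis-derived libraries (0.0177, 0.0220 and 0.0095). Metastasis-derived exceeded C-Raf parental by 0.93 (SE 0.22, 1.91-fold, edgeR adjusted p = 0.0322), where 2.50% of genes were called, and that call was lost in 7 of 24 alternatives. These left out any 1 of the 3 BPH-1 C-Raf parental libraries (adjusted p = 0.0903, 0.101 and 0.0942), the second RWPE-1 C-Raf parental library (0.0567) or thymus R075 (0.0549), took all 24 libraries (0.0857) or left out the vector control (0.0662). Placed in order, the group means of PGF were 0.744 CPM in the RWPE-1 vector control, 3.93 ± 0.341 in BPH-1 vector control (n = 3), 3.94 ± 2.002 in RWPE-1 C-Raf parental (n = 4), 7.41 ± 2.01 in RWPE-1 metastasis-derived (n = 7), 13.4 ± 0.274 in BPH-1 C-Raf parental (n = 3) and 25.6 ± 6.38 CPM in BPH-1 metastasis-derived cells (n = 3). RWPE-1 C-Raf parental cells did not differ beyond their spread from BPH-1 vector control cells. Their range (1.54 to 5.71 CPM) overlapped that of RWPE-1 metastasis-derived cells (5.42 to 10.2 CPM) only at its upper end.

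ANGPTL4, VEGFB, NRP1 and FGF2 responded differently in the 2 lines at the metastasis step. The difference between the metastasis effects, BPH-1 minus RWPE-1, was 3.55 on the log2 scale for ANGPTL4 (SE 0.98, edgeR adjusted p = 0.0066), -1.43 for VEGFB (SE 0.18, 5.0e-06), -1.57 for NRP1 (SE 0.27, 0.00014) and -1.67 for FGF2 (SE 0.60, 0.0291). In this comparison 46.4% of all genes were called, so 4 of 9 members is close to that share. For PGF the difference was 0.01, with an interval of 2 SE from -0.92 to 0.94 (adjusted p = 1.0), so differences up to those bounds remain possible. The FGF2 call was lost in 4 of 22 alternatives, when the second RWPE-1 C-Raf parental library (adjusted p = 0.0566), the third BPH-1 C-Raf parental library (0.0537), bone R069 (0.0537) or bone R072 (0.0670) was left out. VEGFA passed without Bone4 (1.29, adjusted p = 0.0424) and VEGFC without thymus R075 (-2.41, adjusted p = 0.0058).

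The effect of C-Raf itself was not shown to differ between the lines for any member. In that comparison 69 genes or 0.453% were called by edgeR, with 1878 at an unadjusted p under 0.05, and DESeq2 called 506 genes and 1 member, NRP1 (adjusted p = 0.0432). The largest differences, BPH-1 minus RWPE-1, were 2.25 for NRP2 (2 SE interval 0.69 to 3.81, edgeR adjusted p = 0.220) and -2.22 for ANGPTL4 (-5.20 to 0.76, edgeR adjusted p = 0.585). The RWPE-1 side rests on 1 vector control library.

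Between the C-Raf parental cells of the 2 lines 7 of 9 members differed, where 73.8% of all genes were called. ANGPTL4 (log2 fold change 1.76, RWPE-1 over BPH-1, edgeR adjusted p = 0.0019) and NRP1 (1.44, 3.4e-05) were higher in RWPE-1. NRP2 (-3.04, an 8.20-fold difference, 3.6e-05), THBS1 (-2.01, 0.0039), PGF (-1.77, 0.0043), VEGFA (-1.63, 0.0027) and VEGFB (-0.75, 0.00010) were lower in RWPE-1. The 2 neuropilins thus ran opposite ways, with NRP1 at 90.0 ± 15.1 CPM in RWPE-1 (n = 4) and 33.0 ± 2.05 in BPH-1 (n = 3), and NRP2 at 7.63 ± 3.14 and 62.2 ± 3.58 CPM. Cell line, culture medium and table cannot be told apart here.

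Over the 21 deeper libraries, the protein-coding genes whose log2 CPM ran closest to each member were as follows. NRP1 ran with LZIC (Pearson r = 0.981) and TRIM7 (0.979), THBS1 with AMIGO2 (0.972) and CHMP2B (0.952), VEGFB with MRPL38 (0.966) and RFXANK (0.964), and NRP2 with SLC20A2 (0.959) and MPZL2 (0.953). VEGFA ran with EFCAB2 (0.943) and ERN1 (0.931), VEGFC with ADAMTS6 (0.917) and ESM1 (0.891), PGF with LCK (0.888) and MAFF (0.877), ANGPTL4 with TLDC1 (0.833) and SERPINB1 (0.831), and FGF2 with CYGB (0.818) and ACOT4 (0.793). These values describe libraries that share cell line, stage and table, and are the highest of 12540 genes compared.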

How the data were processed

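RNA-seq of 24 cultured cell line libraries was analysed (RNA by RNeasy kit). Per the labels and the study's methods, the authors trimmed reads with cutadapt, checked them with FastQC, aligned them with STAR to hg38 and quantified genes with RSEM within the TOIL pipeline (tool versions and strand setting not given in the sources used here), and deposited expected counts per gene symbol in 4 tables. All 24 columns matched a sample title. Groups came from the labels.

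The expected counts were rounded to whole numbers. Of 60448 symbols, 36628 were in GENCODE 29 and 846 more matched a RefSeq synonym, and the 19201 protein-coding ones were kept. Comparisons used edgeR 4.0.16 (filterByExpr, TMM, quasi-likelihood test, R 4.3.3, limma 3.58.1) over all genes of a fit with Benjamini-Hochberg adjustment at 0.05, two-sided. The C-Raf and metastasis steps of RWPE-1 shared 1 fit, those of BPH-1 were fitted apart, and pooled and line-by-stage comparisons used all 21 deeper libraries. The C-Raf and metastasis steps share the C-Raf parental libraries. Libraries under 1000000 protein-coding counts were left out of the fits. Levels are CPM with TMM scaling, and per-kilobase levels divide by the longest protein-coding transcript. Positions are GRCh38 from GENCODE 29. The procedure was tested on simulated data. The level of the gene targeted by the construct is not reported here.

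Alternatives were RLE scaling, DESeq2 1.42.0, no filter, all genes, all 24 libraries, other sets of groups, a table term, ComBat-seq (sva 3.50.0) with DESeq2, a replicate block and leaving out single libraries. Within-table fits, leaving out each of the 7 RWPE-1 metastasis-derived libraries, and leaving out the RWPE-1 vector control in the pooled comparison were chosen after seeing the data. The members and gene lists were chosen with earlier results of these data known. All 9 members were named, with up to 3 genes per list, direction and comparison by largest absolute fold change (adjusted p under 0.05, mean of at least 1 CPM), and the 2 genes with the highest correlation to each member (log2 CPM, prior count 2). ANGPT4 and the receptors FLT1, KDR, FLT4 and the marker genes, as well as NUDT6, were named outside this rule, after their values were seen.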

Additional observations from a re-analysis of the deposited data

Results flagged for a closer look

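In 5 of 27 sets of a gene and a group of 4 to 10 libraries, 1 library lay far from the others. The cutoff gives about 1 in 20 by chance only for independent sets of normally distributed values. These sets share libraries and hold unlogged CPM, so no excess over chance can be read from the count. The gap to the nearest library, as a share of the whole range, was 0.698 for VEGFA in bone R072 and 0.730 for VEGFC and 0.626 for THBS1 in thymus R075, among the 6 BPH-1 metastasis-derived libraries with the shallow ones included. In the 7 RWPE-1 metastasis-derived libraries it was 0.749 for VEGFA in Bone4 and 0.659 for VEGFC in Spine2.

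The change from C-Raf parental to metastasis-derived cells differed between the lines by test for 4 genes. BPH-1 minus RWPE-1, the log2 differences were 3.55 for ANGPTL4, -1.43 for VEGFB, -1.57 for NRP1 and -1.67 for FGF2. Cell line and table cannot be told apart in these differences. In BPH-1 neither can stage and table, as its metastasis-derived libraries stand in a table of their own.

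Signal also appeared in the shallow BPH-1 libraries that entered no comparison. PGF in bone R071 (58.8 CPM) and ANGPTL4 in bone R071 (25.2 CPM) and bone R074 (24.1 CPM, from 3 counts) had lower 95% bounds above the highest C-Raf parental library. PGF had 0 counts in the other 2 shallow libraries, and VEGFA in bone R071 and bone R075 and THBS1 in all 3 had upper bounds below the lowest C-Raf parental library. In bone R071 the fibroblast markers summed to 277 CPM, the endothelial to 67.15, the haematopoietic to 121.7 and the epithelial to 1742 CPM, and their part was not tested.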

How the results depend on the processing

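Of 1287 recomputed differences of the 9 genes, 1182 kept direction and side of the threshold, 23 lost a call, 20 gained one and 62 changed sign, none of them a called one. The 26 calls therefore kept their direction. The cause of the shifts given here was not tested. Of 108 group levels, 31 moved by more than 1 SD, 10 under RLE scaling and 21 without a scaling factor.

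Counts of called genes moved by over 1.5 times as follows. For C-Raf in BPH-1, all groups in 1 fit gave 377 genes and 2 members. For metastasis in BPH-1, all 24 libraries gave 2101. For C-Raf in RWPE-1, DESeq2 gave 802 genes and 1 member and the table with the vector control 111 and 1. For metastasis in RWPE-1, DESeq2 gave 173 genes, the table with the vector control 174 and 2 members, and 2 were called in the other table. For pooled C-Raf, DESeq2 gave 457 genes and 4 members, all 24 libraries 37, and 2 stages only 1650 and 4. For pooled metastasis, DESeq2 gave 937 genes, keeping noncoding genes 1781, 2 stages only 168 with 0 members, and all 24 libraries 0 members. For the C-Raf effect between lines, DESeq2 gave 506 genes and 1 member, keeping noncoding genes 45 and all 24 libraries 37.

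Leaving out single libraries gave 1957 to 8302 genes and 2 to 7 members for metastasis in BPH-1 (fewest without the first C-Raf parental library, most genes without bone R072 and most members without thymus R075), 18 to 1446 genes and 0 to 1 members for C-Raf in RWPE-1 (most without the first C-Raf library), 4 to 41 genes for metastasis in RWPE-1 (most without Bone4), 38 to 287 for pooled C-Raf (most without the RWPE-1 vector control), 98 to 478 with 0 to 1 members for pooled metastasis, and 20 to 511 for the C-Raf effect between lines (most without the first RWPE-1 C-Raf library).

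Signs turned with all 24 libraries for NRP2 in BPH-1 metastasis (-0.290), with a table term for RWPE-1 C-Raf FGF2 (-0.139) and metastasis ANGPTL4 (-0.196), within the table with the vector control for C-Raf THBS1 (-0.334) and FGF2 (-1.421) and metastasis VEGFB (-0.257), and within the other table for ANGPTL4 (-0.701). Pooled THBS1 turned for C-Raf with 2 stages only (0.114), and for metastasis with noncoding genes kept (-0.034), all 24 libraries (-0.362) and 2 stages only (-0.006). The PGF difference between lines turned without the filter (-0.009) and with noncoding genes kept (-0.193). On leaving out single libraries the ranges that crossed 0 were -0.862 to 0.329 for THBS1 and -0.199 to 0.647 for NRP2 in BPH-1 metastasis, -0.064 to 0.550 for FGF2 in RWPE-1 C-Raf, -0.233 to 0.227 for ANGPTL4 and -0.263 to 0.214 for THBS1 in RWPE-1 metastasis, -0.435 to 0.088 for THBS1 in pooled C-Raf, -0.290 to 0.174 for VEGFC and -0.160 to 0.163 for THBS1 in pooled metastasis, and -0.225 to 0.277 for PGF and -0.964 to 0.274 for THBS1 in the metastasis effect between lines.

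Libraries of BPH-1 with vector and with C-Raf share numbers, but same-numbered libraries deviated together no more than others (r = 0.009, 0.014 and -0.022). A fit with the replicate block called 7678 genes and all 9 members, with PGF at 1.748.

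Depth limits the 3 shallow libraries, where 3 counts are 12.6, 24.1 and 61.2 CPM. The RWPE-1 comparisons rest on 1 vector control.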

Other observations

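The difference between the lines at the metastasis step was also counted in neighbouring gene lists, where 46.4% of all genes were called. Of 12 hypoxia response genes the change was higher in BPH-1 for 6 and lower for 3, with NDRG1 at a log2 difference of 3.81 (edgeR adjusted p = 4.0e-05). Of 13 other secreted vessel factors it was higher for 5, among them the vasodilator peptide ADM (2.54, edgeR adjusted p = 0.00092), and lower for 1. In ADM the BPH-1 levels ran from 41.9 to 47.8 CPM in C-Raf parental cells to 118 to 683 CPM in the 3 deeper metastasis-derived libraries. Of 10 inhibitors of vessel growth it was higher for 2, one of them THBS2 (2.71, edgeR adjusted p = 0.00063). The share called was near that of all genes for the secreted factors and below it for the inhibitors.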
